A study of Mus musculus with 48 samples.

Results

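Metallothioneins are small, cysteine-rich proteins that bind zinc and copper through their thiol groups. Mt1 and Mt2 encode the widely expressed metallothioneins, Mtf1 encodes the zinc-sensing transcription factor that drives them, Slc30a1 (ZnT1) encodes a zinc exporter of the plasma membrane, and Slc39a14 (ZIP14) encodes an importer of zinc, iron and manganese. They are 5 of the 47561 genes listed with a gene name, taken by name, and they were picked with their levels by strain, injection and air already known. For that reason their differences between air, injection and strain are described here without a test, while differences between the sexes and co-variation within groups, which played no part in the choice, were tested.

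The lungs came from adult C3H/hen (C3H) and C57Bl/6 (C57B) mice of both sexes, written C3HM, C3HF, C57BM and C57BF for males (M) and females (F). Each mouse received 1 intraperitoneal injection of saline or of 25 mg/kg aurothioglucose (ATG), a gold thiol compound that inhibits thioredoxin reductase, and then spent 96 h in room air or in hyperoxia of at least 95% oxygen. Every combination held 3 mice, which gave 16 groups and 48 mice. The study's text gives the substrain of C57B as C57Bl/6N, and the labels do not.

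When free zinc in a cell increases, MTF1 enters the nucleus and binds metal response elements, short repeated motifs found close to metallothionein start sites. Glucocorticoids, inflammatory cytokines and oxidants also induce metallothioneins, and an oxidant can release the zinc they hold. MTF1 drives Slc30a1 as well, whereas Slc39a14 is known as an importer induced by interleukin-6 during the acute phase response.

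Mt1 and Mt2 lie side by side on chromosome 8 of GRCm38, both on the plus strand. Mt2 (ENSMUSG00000031762) spans chr8:94172664-94173568, Mt1 (ENSMUSG00000031765) spans chr8:94179082-94180327, and 5513 bases separate them. Their coding sequences are shown first because the cysteines define the family. In the lines for Mt1 and Mt2 coding sequence, from GENCODE M21 transcripts, capitals mark the cysteine codons TGC and TGT.
Mt1: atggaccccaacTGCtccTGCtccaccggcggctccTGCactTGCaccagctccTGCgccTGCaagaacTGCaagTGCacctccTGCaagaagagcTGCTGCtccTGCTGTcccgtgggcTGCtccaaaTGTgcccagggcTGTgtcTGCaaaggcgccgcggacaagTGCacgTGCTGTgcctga
Mt2: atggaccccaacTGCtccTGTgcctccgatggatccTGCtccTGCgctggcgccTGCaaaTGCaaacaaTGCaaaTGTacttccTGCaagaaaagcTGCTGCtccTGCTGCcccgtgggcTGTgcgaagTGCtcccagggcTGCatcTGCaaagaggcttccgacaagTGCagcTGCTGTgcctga
Both coding sequences had 186 bases and 61 codons before the stop, 20 of them for cysteine. All 20 cysteine codons stood at the same positions in both, while 38 of the 186 bases differed (79.6% identity). The longest identical run was 20 bases. Of the 30-base sequences in the transcripts, 0 of 1272 for Mt1 and 4 of 574 for Mt2 (0.697%) also occurred in transcripts of other genes, and neither gene shared such a sequence with the other.

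The 250 bases before each start site in RefSeq (GRCm38.p6) are printed because metal response elements are found close to metallothionein start sites. Whether MTF1 acts through these bases was not measured. Capitals mark the core of the metal response element, searched as TGCACNC and TGCGCNC on both strands.
Mt1 promoter, chr8:94178839-94179088, plus strand: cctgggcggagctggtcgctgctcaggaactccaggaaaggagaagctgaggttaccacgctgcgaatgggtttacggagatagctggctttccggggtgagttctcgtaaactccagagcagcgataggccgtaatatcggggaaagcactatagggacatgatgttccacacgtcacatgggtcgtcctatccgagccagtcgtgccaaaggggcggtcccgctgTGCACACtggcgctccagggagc
Mt2 promoter, chr8:94172368-94172617, plus strand: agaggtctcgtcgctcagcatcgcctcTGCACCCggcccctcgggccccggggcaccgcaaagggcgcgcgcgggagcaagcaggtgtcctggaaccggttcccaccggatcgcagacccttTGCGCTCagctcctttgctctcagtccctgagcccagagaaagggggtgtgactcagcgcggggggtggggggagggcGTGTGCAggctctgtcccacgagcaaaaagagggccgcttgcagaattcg
The Mt1 window held 1 core and the Mt2 window held 3. Among 32817 promoter windows of this length, 21.4% held at least 1 core and 1.26% held at least 3. The first 200 bases of the annotated transcripts carried further cores, 4 in Mt1, of which the nearest to the 5′ end was TGCACTC at chr8:94179091-94179097, and 3 in Mt2, of which GTGTGCA at chr8:94172676-94172682 read as a core on the minus strand. Of 54744 protein-coding transcripts, 0.586% held at least 3 cores there and 0.104% held at least 4. The Mt2 window also held 1 antioxidant response core, TGACTCAGC, searched as TGACNNNGC and present in 10.2% of windows. A match to these letters is a description of the sequence and not a measured binding site.

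Mtf1 (ENSMUSG00000028890) spans chr4:124802104-124849800 on the plus strand. Its promoter window before the RefSeq start, chr4:124802299-124802548, lay within that span and held neither core. The bases before the span were not searched. Slc30a1 (ENSMUSG00000037434) spans chr1:191906767-191913247 on the plus strand, and its window held 1 metal response core, GAGTGCA as read on the plus strand, and 1 antioxidant response core, GCCTTGTCA. Slc39a14 (ENSMUSG00000022094) spans chr14:70303469-70351425 on the minus strand and had no window in the RefSeq table. The palindromic glucocorticoid response element was in none of the 4 windows and in 0.00914% of all windows. Mtf1 overlaps 1110065P20Rik on the other strand over 721 bases, Mt2 overlaps Gm45774 over 749 bases and Slc30a1 overlaps 1700034H15Rik over 761 bases, so reads of these partners may be included unless the strand was used in counting.

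Expression is given as FPKM, fragments per kilobase of transcript after scaling to the size of the library. It is a level per length, so levels of different genes can be compared only roughly. Summed FPKM per library ran from 510933 to 748290, and the depth behind it is unknown. Lung markers were present throughout: the 5 alveolar type 2 markers (Sftpc, Sftpb, Sftpa1, Lamp3, Abca3) summed to 25381.2 to 48867.0 in the saline room air mice and to 5697.4 to 21494.2 in the saline hyperoxia mice. Scgb1a1, a club cell secretory protein, took 10.4 to 30.2% of summed FPKM in the saline room air mice and 1.2 to 6.46% in the saline hyperoxia mice, and a share that large moves the FPKM of every other gene. The 5 neutrophil markers (Retnlg, Csf3r, Cxcr2, Mmp8, Ly6g) summed to a median of 26.5 in saline room air (12.0 to 88.2) and 170.2 in saline hyperoxia (30.7 to 1026.0). The 5 macrophage markers (Marco, Chil3, Mrc1, Cd68, Ear2) summed to medians of 330.5 (156.4 to 624.7) and 793.0 (329.1 to 1892.6). The 4 hepatocyte markers (Alb, Apoa1, Ttr, Fga) summed to at most 6.46 in saline room air, 18.6 in ATG room air, 1.26 in saline hyperoxia and 1.49 in ATG hyperoxia. In bulk lung, fewer cells of a type and less RNA per cell cannot be told apart.

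Mt2 was far higher in hyperoxia than in room air. Among the 12 saline mice of each air, Mt2 ran from 16.3 to 67.0 FPKM in room air, with a median of 32.1, and from 364.9 to 5441.5 FPKM in hyperoxia, with a median of 1714.8. The lowest hyperoxia mouse was above the highest room air mouse. The log2 fold change was 5.74 ± 0.26 (SE), 53.6-fold on the scale of log2(FPKM + 1), and it ranked 1 among the 16321 genes fitted in these mice.

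Mt1 started from a higher level and was higher in hyperoxia by less. Its FPKM ran from 51.9 to 121.5 in saline room air, with a median of 73.8, and from 363.4 to 2751.0 in saline hyperoxia, with a median of 1190.5. The log2 fold change was 3.93 ± 0.20, or 15.2-fold, the 9th largest of all genes fitted. Mt1, Mt2 and Slc39a14 had no overlap between the 12 room air and the 12 hyperoxia mice given saline, against a background of 5.61% of all genes fitted that lay wholly above, and the choice of these genes rested on this comparison.

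The order of the metallothioneins was therefore not the same in the 2 airs. In room air every mouse had more Mt1 than Mt2, with a ratio of Mt2 to Mt1 FPKM between 0.261 and 0.646 in the saline mice and between 0.377 and 0.636 in the ATG mice. In hyperoxia the ratio ran from 0.928 to 2.42 in the saline mice (median 1.55) and from 1.35 to 2.39 in the ATG mice (median 1.7). No hyperoxia mouse had a ratio as low as that of any room air mouse. The hyperoxia ratio also varied among groups, from 0.928, 1.07 and 1.22 in C3HM given saline to 2.24, 2.26 and 2.39 in C3HM given ATG. Together the transcripts of Mt1 and Mt2 made up 0.0113 to 0.0252% of summed FPKM in saline room air and 0.133 to 1.41% in saline hyperoxia.

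**Figure D1:**
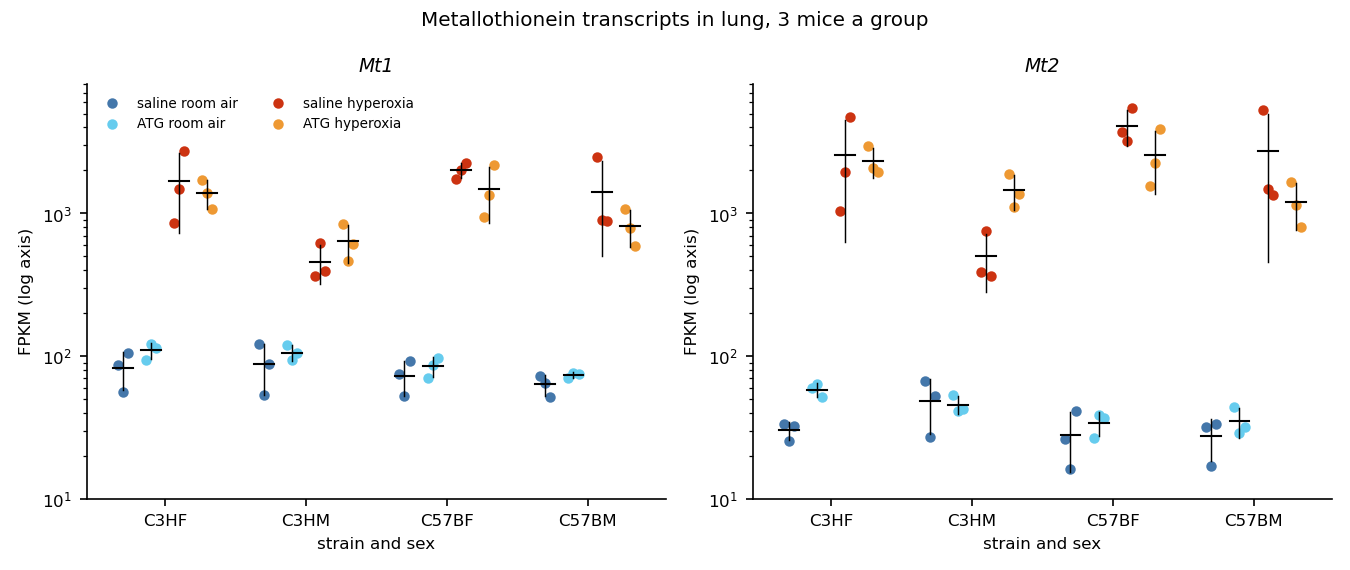
FPKM of Mt1 and Mt2 in each of the 48 mice on a log axis, by the 16 groups of strain, sex, injection and air (points are mice, horizontal bars are group means and vertical bars are SD, n = 3). Every hyperoxia mouse lies above every room air mouse for both genes, and the hyperoxia values of Mt2 spread from 364.9 to 5441.5 in the saline mice.

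**Figure D2:**
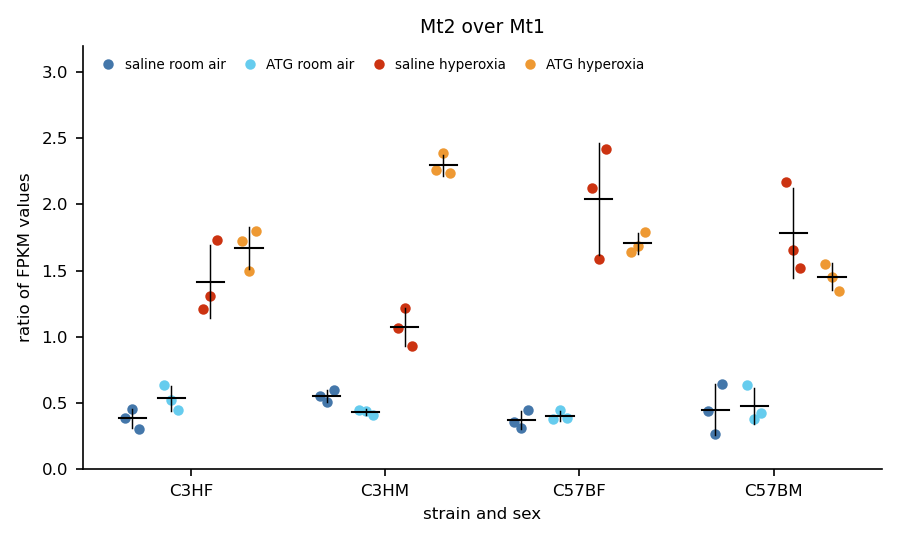
Ratio of Mt2 to Mt1 FPKM in each mouse by strain, sex, injection and air (points are mice, horizontal bars are group means and vertical bars are SD, n = 3). All room air mice lie at or below 0.646, and all hyperoxia mice lie at or above 0.928.

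Mice given ATG showed the same order. Mt2 ran from 26.9 to 63.8 FPKM in ATG room air (median 42.0) and from 802.7 to 3918.5 in ATG hyperoxia (median 1782.2), a log2 difference of 5.34 ± 0.15. Mt1 ran from 69.9 to 121.8 (median 93.8) and from 463.7 to 2188.4 (median 1011.6), a log2 difference of 3.41 ± 0.13. Again neither gene overlapped between the airs, nor did Slc39a14, against a background of 8.82% of the 16206 genes fitted. The spread in hyperoxia was narrower than in the saline mice, with an SD for Mt2 of 863.6 around a mean of 1892.4, compared with 1923.2 around 2481.5.

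The 8 combinations of strain, sex and injection differed widely in the size of the difference. The ratio of mean Mt2 in hyperoxia to that in room air ran from 10.3 in C3HM given saline to 147.2 in C57BF given saline, and for Mt1 it ran from 5.23 to 27.4 in the same groups. The 3 C3HM saline mice in hyperoxia had Mt2 at 364.9, 388.1 and 756.1 FPKM. The 3 C57BF saline mice had 3193.1, 3724.7 and 5441.5. These were the lowest and the highest of the hyperoxia groups by their middle mouse. Between them, from low to high, stood C57BM given ATG (802.7, 1145.7 and 1667.3), C3HM given ATG (1107.3, 1378.6 and 1897.2) and C57BM given saline (1347.4, 1486.3 and 5342.5). Then came C3HF given saline (1032.9, 1943.3 and 4757.6), C3HF given ATG (1945.3, 2072.2 and 2959.9) and C57BF given ATG (1555.8, 2258.9 and 3918.5). Only C3HM given saline was separated from its neighbour in this order, and all other neighbouring groups overlapped.

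Slc39a14, the zinc importer of the acute phase, was higher in hyperoxia in every combination. It ran from 1.43 to 5.46 FPKM in saline room air (median 3.54) and from 9.81 to 55.5 in saline hyperoxia (median 28.4). In the ATG mice it ran from 1.91 to 5.41 and from 16.4 to 42.1. The log2 fold changes were 2.70 ± 0.14 in the saline mice and 2.72 ± 0.13 in the ATG mice, and Slc39a14 ranked 48 among all genes in both. The ratio of means ran from 5.06 in C3HM given saline to 11.2 in C57BF given saline, the same lowest and highest groups as for Mt2.

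Mtf1, the sensor, was higher in hyperoxia by much less. It ran from 5.52 to 9.8 FPKM in saline room air (median 6.61) and from 7.09 to 17.0 in saline hyperoxia (median 9.59), a log2 difference of 0.58 ± 0.10, and the log2 difference in the ATG mice was 0.62 ± 0.10. The groups overlapped over all saline mice. The ratio of means ran from 1.16 in C57BM given ATG to 2.01 in C3HM given ATG, so that each mean was higher in hyperoxia.

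Slc30a1, the exporter, differed little between the airs. It ran from 8.5 to 18.6 FPKM in saline room air (median 12.1) and from 11.2 to 16.0 in saline hyperoxia (median 12.7), a log2 difference of 0.10 ± 0.08. In the ATG mice it was lower in hyperoxia, at 6.88 to 16.9 FPKM compared with 8.64 to 17.4, a log2 difference of -0.22 ± 0.09. The groups overlapped in both, and the ratio of means ran from 0.665 in C3HF given ATG to 1.28 in C57BM given saline. In room air the order of the members by median in the saline mice was Mt1, Mt2, Slc30a1, Mtf1 and Slc39a14, and among neighbours in this order only Mtf1 and Slc39a14 had ranges that did not overlap. In saline hyperoxia the order was Mt2, Mt1, Slc39a14, Slc30a1 and Mtf1, with overlapping ranges for all neighbours except Mt1 and Slc39a14.

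**Figure D3:**
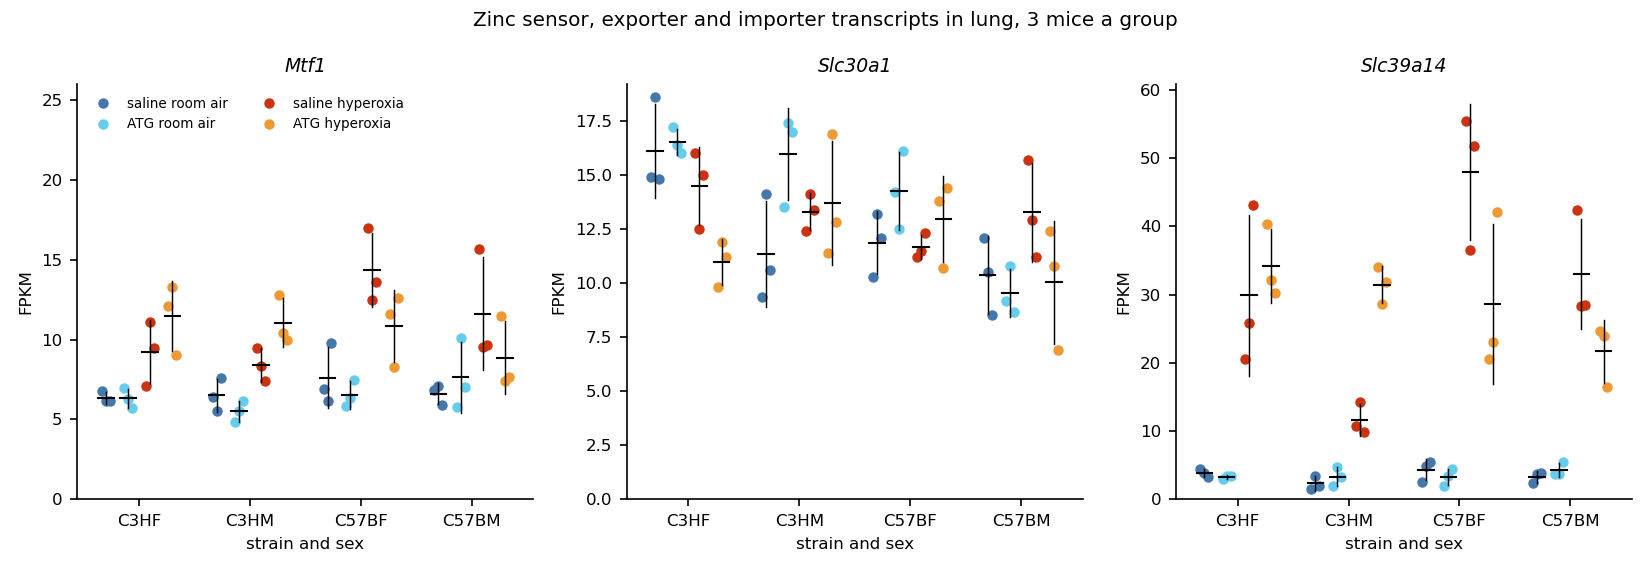
FPKM of Mtf1, Slc30a1 and Slc39a14 in each mouse by group (points are mice, horizontal bars are group means and vertical bars are SD, n = 3). Slc39a14 separates the airs in every combination, from at most 5.46 in room air to at least 9.81 in hyperoxia, while Slc30a1 overlaps between them.

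ATG was injected to inhibit thioredoxin reductase, and the ATG comparison in room air shared its saline mice with the hyperoxia comparison above. In room air the ATG mice had slightly more metallothionein transcript. The log2 difference between ATG and saline was 0.32 ± 0.13 for Mt1, with means of 93.9 ± 18.7 and 76.8 ± 22.7 FPKM (SD, n = 12), and 0.41 ± 0.16 for Mt2, with means of 43.3 ± 11.8 and 33.7 ± 14.4. The groups overlapped for all 5 genes, as they did for nearly all genes, since 0.00616% of the 16228 genes fitted lay wholly apart. In C3H, the 6 ATG mice had Mt2 between 41.3 and 63.8 FPKM and the 6 saline mice between 25.5 and 67.0, and in C57B they ran from 26.9 to 44.2 and from 16.3 to 41.4. Mtf1 (-0.06 ± 0.09), Slc30a1 (0.16 ± 0.08) and Slc39a14 (0.05 ± 0.14) had smaller log2 differences.

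In hyperoxia, the means of Slc39a14, Mt2 and Mtf1 were higher with ATG than with saline in C3H and lower in C57B, while those of Mt1 and Slc30a1 were lower with ATG in both strains. The log2 difference between ATG and saline over both strains was -0.21 ± 0.21 for Mt1, 0.00 ± 0.26 for Mt2 and 0.07 ± 0.13 for Slc39a14. In C3H, Slc39a14 ran from 28.6 to 40.3 FPKM with ATG (mean 32.8) and from 9.81 to 43.1 with saline (mean 20.7). Its means were 31.5 with ATG and 11.6 with saline in C3HM, and closer together in C3HF, at 34.2 and 29.9. In C57B it ran from 16.4 to 42.1 with ATG (mean 25.1) and from 28.3 to 55.5 with saline (mean 40.5), and 5 of the 6 ATG mice were below all saline mice. Mt2 had means of 1893.4 with ATG and 1540.5 with saline in C3H, and of 1891.5 and 3422.6 in C57B. The higher Mt2 mean with ATG in C3H was seen in the males (1461.0 and 503.0), and in C3HF it was 2325.8 with ATG and 2577.9 with saline. Mt1 had means of 1017.9 and 1077.7 in C3H and of 1156.1 and 1711.1 in C57B, and Slc30a1 of 12.4 and 13.9 and of 11.5 and 12.5. For Mt1 in C3H the medians had the other order, 961.0 with ATG and 737.3 with saline. The Mt1 means were 639.8 with ATG and 458.8 with saline in C3HM, and 1396.0 and 1696.6 in C3HF. The difference between the strains in this ATG effect, which was computed after these values were seen, was 1.49 ± 0.27 (log2) for Slc39a14, 1.68 ± 0.52 for Mt2, 0.69 ± 0.21 for Mtf1, 0.74 ± 0.42 for Mt1 and -0.04 ± 0.18 for Slc30a1. Saa3, a serum amyloid A of the acute phase (5.26, adjusted p = 0.0142), Lcn2 (2.70, adjusted p = 0.0466), Steap4, a metalloreductase (2.66, adjusted p = 0.0211), and Slc39a8, another importer of zinc and manganese (0.91, adjusted p = 0.0114), differed between the strains in the same direction by limma. They were 2 of the 7 interleukin-6 and STAT3 genes fitted and 2 of the 27 zinc and copper genes, and the latter count ran from 1 to 4 with single mice left out. Of all 15860 genes fitted, 0.416% passed that test. The lists were chosen with earlier results of these data known.

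Strain by itself moved the members little at rest. In saline room air, Mt1 ran from 53.5 to 121.5 FPKM in C3H and from 51.9 to 92.3 in C57B, and Mt2 from 25.5 to 67.0 and from 16.3 to 41.4. The log2 differences of C3H against C57B were 0.28 ± 0.22 and 0.48 ± 0.27 for these genes, -0.12 ± 0.13 for Mtf1, 0.26 ± 0.13 for Slc30a1 and -0.25 ± 0.20 for Slc39a14. The strains overlapped for all 5, and 5.98% of the genes fitted lay wholly apart. In saline hyperoxia the order was the other way for the metallothioneins, with Mt2 medians of 894.5 in C3H (364.9 to 4757.6) and 3458.9 in C57B (1347.4 to 5441.5). The hyperoxia effect in C3H minus that in C57B was -2.05 ± 0.53 (log2) for Mt2, -1.22 ± 0.41 for Mt1, -0.82 ± 0.28 for Slc39a14, -0.38 ± 0.20 for Mtf1 and -0.11 ± 0.16 for Slc30a1, where the median of all genes was 0.15. Slc30a1 was higher in C3H over all 48 mice by 0.24 ± 0.06 and Slc39a14 was lower (-0.26 ± 0.10).

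Sex was not used to choose these genes and was tested with limma, with adjustment over all genes. Over the 48 mice, Mt1, Mt2 and Slc39a14 were lower in males than in females. The log2 difference of males against females was -0.60 ± 0.13 for Mt1 (adjusted p = 0.00204), -0.56 ± 0.16 for Mt2 (adjusted p = 0.0172) and -0.35 ± 0.10 for Slc39a14 (adjusted p = 0.018). Slc30a1 (-0.16 ± 0.06, adjusted p = 0.0672) and Mtf1 (-0.11 ± 0.07, adjusted p = 0.325) did not pass. These 3 of 5 members stand beside 7.56% of the 16994 genes fitted that were lower in males.

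The sex difference in metallothioneins depended on the air. The interaction of sex with air was -1.01 ± 0.25 (log2) for Mt1 and -1.26 ± 0.32 for Mt2, each with an adjusted p of 0.0208 in limma, and 1.27% of all genes passed in this direction. In room air, a comparison added after the data were seen, the log2 differences were -0.09 for Mt1 (adjusted p = 0.668) and 0.07 for Mt2 (adjusted p = 0.798). The comparison among the hyperoxia mice was also added after the data were seen. In it, Mt1 averaged 833.3 FPKM in males and 1648.1 in females (-1.10 ± 0.21, adjusted p = 0.0223), and Mt2 averaged 1473.7 and 2900.3 (-1.19 ± 0.26, adjusted p = 0.0459). In that comparison 0.322% of genes were lower in males. The Mt2 result among the hyperoxia mice was near the threshold, and leaving out 1 mouse at a time gave adjusted p values from 0.00619 to 0.0906. Slc39a14 (-0.55 ± 0.13) had an adjusted p of 0.0554 there, and its interaction with air was -0.41 ± 0.20 (adjusted p = 0.22).

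The ratio of female to male means in hyperoxia was highest in the C3H mice given saline. In hyperoxia the 3 C3HM of that group had Mt1 at 363.4, 393.0 and 620.1 FPKM, and the 3 C3HF had 854.4, 1484.5 and 2751.0, with no overlap, as for 10.1% of genes in that group. The ratio of female to male means there was 3.7 for Mt1, 5.12 for Mt2 and 2.57 for Slc39a14. In C3H given ATG the ratios were 2.18 and 1.59 for Mt1 and Mt2, in C57B given saline 1.42 and 1.51, and in C57B given ATG 1.82 and 2.14, so that the female mean was the higher in each. Without the C3H saline mice of both airs, the interaction was -0.74 for Mt1 (adjusted p = 0.136) and -0.76 for Mt2 (adjusted p = 0.249). Without the C3H saline hyperoxia mice, the difference over all remaining mice was -0.33 for Mt2 (adjusted p = 0.164) and -0.22 for Slc39a14 (adjusted p = 0.175), while Mt1 still passed.

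**Figure D4:**
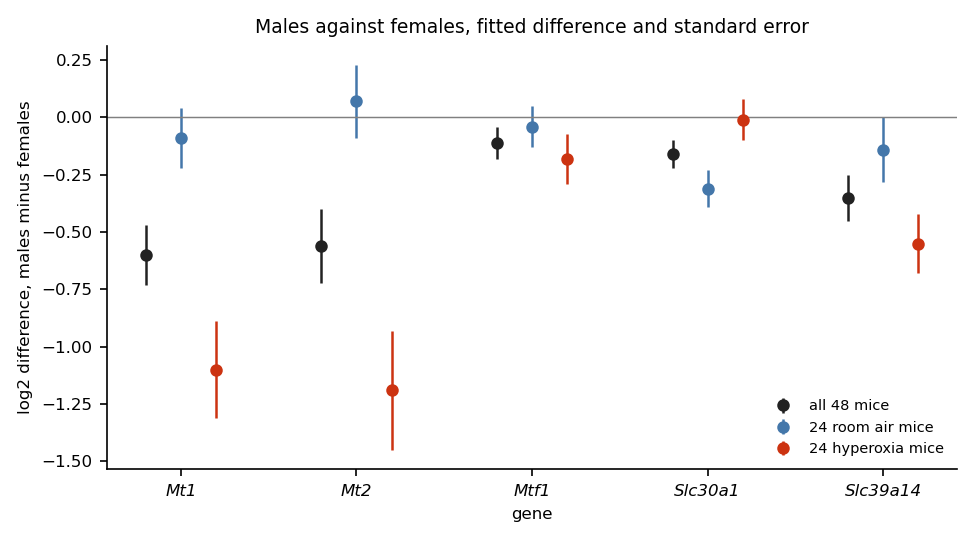
Log2 difference of males against females for each of the 5 genes over all 48 mice, in room air and in hyperoxia (points are limma estimates on log2(FPKM + 1) and bars are SE). Mt1 and Mt2 lie near 0 in room air and at -1.10 and -1.19 in hyperoxia.

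Markers of neutrophils and macrophages moved with sex and air as well, and their part in the metallothionein difference was not tested. The interaction of sex with air passed for 4 of the 5 neutrophil markers and 4 of the 5 macrophage markers, all in the direction of Mt1 and Mt2. Of all genes, 1.27% passed in that direction. It also passed for S100a8 (-3.05 ± 0.62, adjusted p = 0.00496) and S100a9 (-2.91 ± 0.65, adjusted p = 0.0105), the subunits of the zinc-binding neutrophil protein calprotectin. In saline hyperoxia, summed neutrophil markers were 30.7 to 37.4 FPKM in C3HM and 34.2, 283.3 and 927.1 in C3HF. They were 41.4 at the lowest and 1026.0 at the highest in C57BM, and 348.2 to 621.3 in C57BF. In each of these 4 groups the mouse with the most neutrophil transcript was also the one with the most Mt2, as in 3 of the 4 ATG hyperoxia groups. With 3 mice a group, such matches also arise by chance. In room air the match held in some groups and not in others. C57BM in ATG room air had neutrophil sums of 195.0 to 353.1 FPKM, with Mt2 at 29.0 to 44.2. None of these markers was at 0 in all mice. Of 6 glucocorticoid-inducible genes fitted, 3 had interactions of the other sign by limma, beside 2.89% of all genes. They were Per1 (1.5 ± 0.24, adjusted p = 0.000449), Klf9 (0.68, adjusted p = 0.00448) and Zbtb16 (1.23, adjusted p = 0.048). Yet 5 of the 6 glucocorticoid-inducible genes were lower in males over all 48 mice (median -0.88) and 5 of 6 in room air (median -1.01), compared with 1 of 6 in hyperoxia (median -0.42). Of all genes, 7.56%, 8.79% and 0.322% were lower in males in these comparisons. In room air, 4 of the 5 neutrophil markers and both S100 genes were higher in males, beside 4.52% of all genes. Summed neutrophil markers there were 43.5 to 88.2 FPKM with saline and 195.0 to 353.1 with ATG in C57BM, and 17.1 to 35.0 and 24.3 to 32.7 in C57BF. In C3H the sexes overlapped, at 12.0 to 27.3 and 11.0 to 41.8 in C3HM and 20.9 to 25.6 and 13.3 to 29.5 in C3HF.

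The exporter had a sex difference in room air. In the comparison over the 24 room air mice, which was added after the data were seen, Slc30a1 averaged 11.8 FPKM in males and 14.7 in females. The log2 difference was -0.31 ± 0.08 (adjusted p = 0.0139 in limma), beside 8.79% of genes lower in males. Slc30a1 did not pass over all 48 mice (adjusted p = 0.0672 in limma) or for the interaction of sex with air (0.30 ± 0.12, adjusted p = 0.125 in limma). In saline room air C3HM had 9.35, 10.6 and 14.1 FPKM and C3HF had 14.8, 14.9 and 18.6, and in C57B given ATG the males had 8.64, 9.16 and 10.8 and the females 12.5, 14.2 and 16.1. Those groups did not overlap, as for 15.4% and 9.61% of genes, while in the other combinations the means differed by 1.03-fold in C3H given ATG and 1.14-fold in C57B given saline. In the 12 saline room air mice alone, no member passed by limma (adjusted p from 0.164 to 0.887), and 0.669% of genes passed. At an unadjusted p under 0.05, 2 of 5 members stood beside 3617 of 15546 genes. The median of all genes was -0.12 there, and the signs for Mt1 (-0.06) and Mtf1 (-0.07) turned when each library was scaled by its median ratio.

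No member passed for the interaction of sex with injection (adjusted p from 0.588 to 0.996 in limma), where 0 of 16994 genes passed and 1248 had an unadjusted p under 0.05, or for the interaction of sex with strain (adjusted p from 0.493 to 0.859), where 0.453% of genes passed. At an unadjusted p under 0.05, 1 of the 5 members, Slc39a14 (0.62), passed for injection and 0 for strain, where 2730 of 16994 genes did.

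Within groups, Mt1 and Mt2 moved together from mouse to mouse. The deviations of log2(FPKM + 1) from the 16 group means had a Pearson r of 0.90 and a Spearman rho of 0.83 over 48 mice, with an adjusted p of 0.0001 for each by permutation within groups over 10 pairs of members, the smallest that 100000 draws allowed. It was 0.86 without the 2 mice farthest from the median of Mt1, 0.68 among the room air mice and 0.98 among the hyperoxia mice. Mt1 and Mtf1 had an r of 0.54 (adjusted p = 0.018, permutation) and a rho of 0.52 (adjusted p = 0.013, permutation), with 0.43 without the 2 farthest mice, 0.42 in room air and 0.60 in hyperoxia. Mt2 and Mtf1 did not pass, with an r of 0.47 (adjusted p = 0.062, permutation) and a rho of 0.43 (adjusted p = 0.06, permutation). Their r was 0.23 in room air and 0.59 in hyperoxia. Mt2 and Slc39a14 had an r of 0.44 (adjusted p = 0.062, permutation) and a rho of 0.38 (adjusted p = 0.079, permutation), which did not pass, and their r was 0.90 in hyperoxia and -0.26 in room air. Slc30a1 and Mt1 had an r of 0.00 (adjusted p = 0.99, permutation), with -0.47 in room air and 0.24 in hyperoxia. The libraries share their depth and composition across genes.

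The genes whose levels most resembled the mean of Mt1 and Mt2 on the log2 scale over the 48 mice included, by Pearson r, F3 (0.974), Gnl3 (0.968), Akr1b8 (0.968), Myc (0.967), Tma16 (0.967), Enc1 (0.965), Cstb (0.963), Gm7993 (0.962) and Tubb6 (0.962). This ranking covered 16992 genes, and the points share their libraries and the gap between the airs. Within the 24 room air mice r ran from -0.257 to 0.456 for these 9 genes, and within the 24 hyperoxia mice from 0.622 to 0.883. F3, the tissue factor that starts coagulation, ran from 21.6 to 48.0 FPKM in room air and from 117.1 to 709.1 in hyperoxia. Myc, a growth transcription factor, ran from 2.05 to 7.19 and from 13.4 to 88.3. Among the hyperoxia mice, r was 0.758 for F3 and 0.883 for Myc. Slc39a14 was 13th in the ranking (0.96), Mtf1 was 1199th (0.815) and Slc30a1 was 9307th (-0.066).

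Other zinc and copper genes were counted from lists of 35 genes (other metallothioneins, ZnT exporters, ZIP importers and copper handling). These lists were chosen with earlier results of these data known, and the p-values make no allowance for that choice. In hyperoxia against room air among the saline mice, 12 of the 27 fitted rose and 3 fell, with a median log2 fold change of 0.18 compared with 0.01 over all genes, of which 60.1% passed. Among 11 importers fitted, 7 rose and 1 fell. Slc39a2 rose by 1.89 ± 0.15 (adjusted p = 1.36e-09 in limma), from 0.495 to 3.6 FPKM in room air to 3.51 to 14.2 in hyperoxia. Slc39a11 rose by 1.30 ± 0.16 and Slc39a1 by 1.07 ± 0.10, and Slc39a4, the importer of intestinal zinc uptake, fell by 0.59 ± 0.12 (adjusted p = 0.000206 in limma).

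Among 5 exporters fitted, 1 passed, Slc30a4 (0.92 ± 0.07, adjusted p = 1.29e-09 in limma), at 5.35 to 9.08 FPKM in room air and 10.6 to 20.4 in hyperoxia. In the copper list, 4 of 10 rose and 2 fell. Steap4 rose by 1.16 ± 0.22 and Slc31a2, a copper transporter of intracellular membranes, fell by 0.81 ± 0.10. Mt3, the metallothionein of the brain, was at 0.573 FPKM in room air and 0.688 in hyperoxia and did not pass (adjusted p = 0.441 in limma), and Mt4, of stratified epithelium, was too low to be fitted. Among the ATG mice, 14 of 28 rose and 4 fell, beside 61.8% of all genes that passed.

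**Figure D5:**
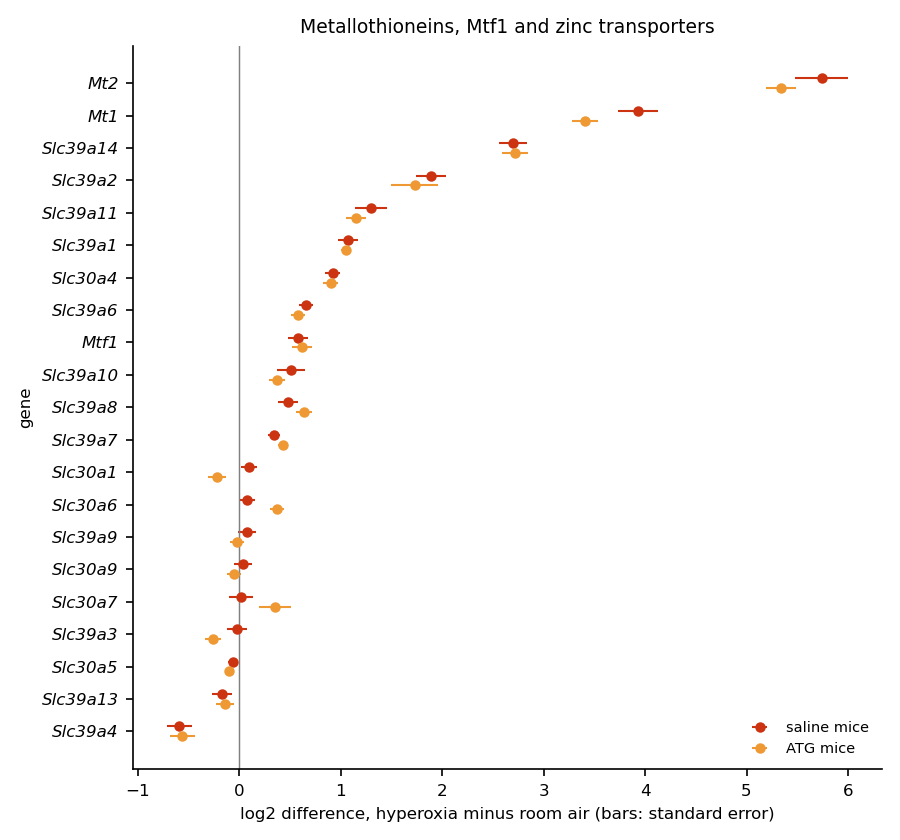
Log2 fold change in hyperoxia against room air for the zinc genes and members fitted in both comparisons, in the saline mice and in the ATG mice (21 genes, points are limma estimates, bars are SE). Mt2 (5.74 and 5.34), Mt1 (3.93 and 3.41) and Slc39a14 (2.70 and 2.72) are the 3 highest in both.

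Genes of the inducing routes were counted in the same fit of the saline mice, in which 31.8% of all genes rose. Their lists were also chosen with earlier results of these data known, so the counts and p-values are descriptive. Of 9 genes induced by thiol-reactive metals through the factor Nrf2 or heat shock, 7 rose and 2 fell, with a median of 2.11. Gclc, which starts glutathione synthesis, rose by 2.62 ± 0.12 (adjusted p = 8.77e-13 in limma), while the heat shock genes Hspa1a and Hspa1b fell by 0.87 and 0.99. All 6 glucocorticoid-inducible genes fitted rose, with a median of 1.40, while in the ATG mice 4 of 6 rose and 1 fell, with a median of 0.68, beside 35.8% of all genes that rose. The interaction of ATG with air passed with a negative sign for 3 of the 6, beside 1.21% of all genes. Fkbp5, the most changed, averaged 4.15 FPKM in room air and 52.5 in hyperoxia (3.29 ± 0.17, adjusted p = 3.35e-12). Of 7 genes induced by interleukin-6 or STAT3, 6 rose and 1 fell, with a median of 2.20. Il6 itself averaged 0.739 and 98.6 FPKM (4.02 ± 0.56, adjusted p = 4.2e-06 in limma), with a hyperoxia range from 1.76 to 403.2.

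The zinc and copper lists were counted in the other comparisons as well, with the same limit on their choice. In ATG against saline, 0 of 28 passed in room air by limma, where 0.0185% of all genes passed, and 2 rose in hyperoxia, Slc30a6 (0.25, adjusted p = 0.048 in limma) and Slc39a8 (0.27, adjusted p = 0.0476), where 5.47% passed. In C3H against C57B in saline room air, Slc39a13 was higher (0.37, adjusted p = 0.0181 in limma), and Slc39a11 (-0.89, adjusted p = 0.0398) and Atp7b, a copper-exporting ATPase (-0.81, adjusted p = 0.0282), were lower, beside 11.8% of all genes. Over all 48 mice, 7 of 28 were higher and 3 lower in C3H, beside 41.6% of all genes, and Slc39a11 differed most (-0.92 ± 0.10, adjusted p = 3.99e-10 in limma). The hyperoxia effect differed between the strains for 5 of 27, beside 11.5% of all genes, including Slc30a4 (-0.66, adjusted p = 0.00637), Slc39a6 (-0.73, adjusted p = 0.00445) and Slc39a4 (1.00, adjusted p = 0.00944). Over all 48 mice, 4 of 28 differed between the sexes, beside 12.4% of all genes. Slc30a4 (-0.21, adjusted p = 0.00427) and Slc31a1 (-0.24, adjusted p = 0.00978) were lower in males, and Cox17 (0.21) and Commd1 (0.18) were higher.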

How the data were processed

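Lung RNA of 48 mice was sequenced by the authors in paired reads. Alignment was to mm10 by GSNAP, Cufflinks gave the FPKM, and the deposited table holds 1 FPKM value per gene and mouse; the sources name 2 library kits, 1 of them directional, so strand use is uncertain. Values are not counts, and depth is unknown. Akap5 was left out because 7 mice carried a failed-estimate code (999999999), and 4216 genes of chromosomes X, Y and M were at 0 in all mice.

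Log2 values computed here from the deposited FPKM, log2(FPKM + 1), were fitted with limma 3.58.1 (R 4.3.3, eBayes with a trend). A gene entered when 3 or more of the mice in a fit reached an FPKM of 1. Benjamini-Hochberg adjustment ran over all genes, with a threshold of 0.05. The fits used the groups of strain, sex, injection and air, averaged over the other factors. On simulated data, the fit recovered 93% of 200 genes changed by 1 (log2) between airs, 97.5% between sexes and 84% in the interaction of sex with air. It recovered 75% between strains in saline room air. The false share of its calls ran from 1.32% (strains) to 5.58% (airs), and reached 7.25% for strains with changes of 2 (log2). The simulated noise was normal and independent between genes, and nothing but the 200 genes differed between groups. In the real saline mice 60.1% of genes passed between airs, so these shares need not hold there. Whether replicates were separate litters is not stated, so p-values measure the spread between these mice.

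The members and lists were chosen with earlier results of these data known. The genes named were the members, list genes past the threshold (at most 6 per list and comparison, by size of change, with others as values), and the 10 genes most alike to Mt1 and Mt2 by Pearson r, of which 1 is not reported here. Alternatives were other pseudocounts, filters, normalizations, strata and single mice left out.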

Additional observations from a re-analysis of the deposited data

Results flagged for a closer look

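Mt1 and Mt2 had a sex difference that was not the same in the 2 airs, by a test of the interaction: -1.01 for Mt1 and -1.26 for Mt2 (log2, males minus females, hyperoxia minus room air).

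In groups of 6 mice of the same strain, injection and air, 1 mouse stood apart in 4 of 40 groups tested. The measure was the gap to its nearest neighbour as a share of the range, taken on FPKM and not on log2 values. Chance alone gives about 1 in 20 when all mice of a group come from the same normal distribution. Each group here held 3 males and 3 females, so that rate need not hold, and the 4 flags are descriptive. Mt2 in C3H saline hyperoxia had 1 female at 4757.6 FPKM (share 0.641). Mtf1 in C57B saline room air had 1 female at 9.8 FPKM (share 0.688). Slc30a1 in C3H ATG room air had 1 male at 13.5 FPKM (share 0.635). Slc39a14 in C57B ATG hyperoxia had 1 female at 42.1 FPKM (share 0.679).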

How the results depend on the processing

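No paired analysis was possible because each mouse has its own number, so that groups share no replicate numbers. Of 720 values of 96 results under the alternatives other than single mice left out, 673 kept their direction and their side of the threshold, or stayed within the spread. For member differences without a test, the filters, the trend and the fit of all mice cannot change the log2 value. Those values were therefore the same by construction. An untested difference within the spread was counted as kept even where its sign turned.

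Hyperoxia against room air in the saline mice was 3.35 and 4.84 (log2) for Mt1 and Mt2 in males alone and 4.51 and 6.65 in females alone, and for Mt1 in the ATG mice 2.98 and 3.84. Males against females over all mice was -0.65 for Mt2 in C3H alone (adjusted p = 0.0573 in limma), and -0.47, -0.47 and -0.21 for Mt1, Mt2 and Slc39a14 in C57B alone (adjusted p = 0.14, 0.277 and 0.484 in limma). Without the C3H saline hyperoxia mice it was -0.33 for Mt2 and -0.22 for Slc39a14, and without the C3H saline mice the interaction with air was -0.74 and -0.76 for Mt1 and Mt2. In saline room air the sex difference of Mt1 turned to 0.07 with median ratio scaling and 0.06 in C3H alone, and that of Mtf1 to 0.09 with quantile normalization, 0.05 with median ratio scaling and 0.02 in C3H alone. Over all room air mice that of Mtf1 was 0.07 and 0.03 with quantile normalization and median ratio scaling. The median of all genes, -0.12 in saline room air and -0.07 over all room air mice, was 0 and -0.01 under those scalings in both. The cause of the changes in this paragraph was not tested.

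Counts of zinc and copper genes past the threshold moved as follows. C3H against C57B in saline room air went from 3 to 1 without a filter and to 5 with quantile normalization or the fit of all mice. ATG against saline in hyperoxia went from 2 to 1 with a pseudocount of 0.1 or without the trend and to 0 with no filter, a filter of 0.1 FPKM, either scaling, or 1 sex. Sex in saline room air went from 0 to 3 in the fit of all mice. Sex over all mice went from 4 to 2 in C3H alone, 0 in C57B alone and 2 without the C3H saline hyperoxia mice, and the interaction with air from 2 to 1 with quantile normalization and without the C3H saline mice.

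With single mice left out, the sex difference in hyperoxia ran from -1.22 to -0.99 for Mt1, which lost its call without either of 2 C3HM, and from -1.35 to -1.04 for Mt2, which lost it in 18 of 24; its call was also lost with no filter (adjusted p = 0.0757 in limma). That of Slc39a14 ran from -0.61 to -0.48 and that of Slc30a1 from -0.05 to 0.05. Slc30a1 ran from -0.18 to -0.13 over all mice, from -0.41 to -0.27 in saline room air, and from 0.26 to 0.36 for the interaction with air, and it passed without C3HM saline room air mouse 2 in all 3. In saline room air Mt1 ran from -0.2 to 0.1 and Mtf1 from -0.13 to 0.02, and over room air Mt2 from -0.01 to 0.16 and Mtf1 from -0.09 to 0.01. The interaction of sex with injection ran from -0.02 to 0.21 for Mt1, -0.06 to 0.25 for Mt2 and -0.05 to 0.04 for Slc30a1. The counts ran from 2 to 9 (sex, room air), 0 to 2 (ATG, hyperoxia), 1 to 4 (strain by ATG, hyperoxia), 1 to 6 (strain, saline room air), 0 to 4 (sex, hyperoxia), 0 to 7 (sex, saline room air), 1 to 2 (ATG by air), 1 to 6 (sex by air) and 0 to 1 (sex by strain).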
